A study of Mus musculus with 6 samples.

Results

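The miR-17-92 and miR-106b-25 clusters are families of small regulatory RNAs, and 10 of their mature miRNAs were followed in exosomes from unstimulated and IL-4 plus IL-13 polarized macrophages. The members were chosen by name and not by a rule on their values, though with earlier results of these data known. They are mmu-miR-17-5p, mmu-miR-18a-5p, mmu-miR-19a-3p, mmu-miR-20a-5p, mmu-miR-19b-3p and mmu-miR-92a-3p of the miR-17-92 cluster, and mmu-miR-106b-5p, mmu-miR-106b-3p, mmu-miR-93-5p and mmu-miR-25-3p of the miR-106b-25 cluster, written below without the species prefix. All 10 were present among the 598 miRNA names of the deposited table, and for a name with several entries the one with the highest total was used.

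Exosomes came from Raw264.7 cells, an established wild-type mouse macrophage line. In the M0-exo group the cells were cultured for 24 h without cytokines. In the M2-exo group the 24 h of culture included IL-4 and IL-13, each at 20 ng/mL. Cells of both groups were then moved to serum-free medium before the supernatant was taken for ultracentrifugation. Each group had 3 samples for small RNA sequencing, and every sample carried the label batch 1. Nothing in the labels says that the samples of a group came from separate cultures. The p-values therefore rest on the spread between these samples, which may be technical. In the edgeR fit this spread is largely pooled over all miRNAs and is not that of each miRNA alone. The groups model 1 cell line, and only vesicle RNA was sequenced, not the RNA of the cells.

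A miRNA hairpin is cut by Drosha and then Dicer into a duplex, from which one strand is usually loaded into an Argonaute protein while the other is lost. Bases 2 to 8 of the loaded strand, the seed, largely decide which mRNAs are bound, so miRNAs with the same seed share many targets. The miR-17-92 cluster is transcribed as one primary transcript, is induced by Myc and promotes proliferation and survival, among other routes through repression of Bim. The miR-106b-25 cluster is its paralog within the Mcm7 gene, which encodes a subunit of the replicative helicase, and carries the seeds of miR-17 and miR-92a again. In the progenitors of macrophages, miR-17, miR-20a and miR-106a are known to hold back differentiation, in part through Runx1.

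The mature sequences are given as the deposited table lists them, from 5′ to 3′, with the seed in capitals, because the clusters are read below by seed as well as by hairpin. Those of the 10 members equal the RefSeq entries of GRCm38.p6. The first 4 share the seed AAAGUGC, the next pair AUUGCAC and the pair after it GUGCAAA, while miR-18a-5p and miR-106b-3p each have a seed of their own among the members.
miR-17-5p: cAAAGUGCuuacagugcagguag
miR-20a-5p: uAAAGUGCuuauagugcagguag
miR-93-5p: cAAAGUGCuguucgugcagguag
miR-106b-5p: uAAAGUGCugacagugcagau
miR-92a-3p: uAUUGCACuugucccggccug
miR-25-3p: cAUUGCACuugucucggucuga
miR-19a-3p: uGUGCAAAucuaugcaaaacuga
miR-19b-3p: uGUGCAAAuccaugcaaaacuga
miR-18a-5p: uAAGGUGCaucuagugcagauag
miR-106b-3p: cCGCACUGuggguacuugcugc

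Other arms of the same hairpins are described further on, and the sequences of the 3 most abundant are shown because 2 of them differed between the groups.
miR-17-3p: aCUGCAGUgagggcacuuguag
miR-92a-1-5p: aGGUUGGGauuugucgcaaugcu
miR-25-5p: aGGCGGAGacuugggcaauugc

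In GRCm38, the 6 hairpins of the miR-17-92 cluster lie within 836 bases on the plus strand of chromosome 14, from 115043671 to 115044506. The GENCODE M21 annotation places them in an exon of their noncoding host gene, Mir17hg. The 3 hairpins of the miR-106b-25 cluster lie within 498 bases on the minus strand of chromosome 5, from 138165321 to 138165818. They are in introns of 2 Mcm7 transcripts, and those of miR-93 and miR-25 also fall in an exon of another Mcm7 transcript. The submitters' processing notes name the build mm39 and the table holds no coordinates, so all positions here are those of the GRCm38 annotation. miR-93-5p lies at chr5:138165574-138165596, miR-25-5p at chr5:138165370-138165391, miR-92a-3p at chr14:115044476-115044496 and miR-92a-1-5p at chr14:115044437-115044459. Identical copies of miR-92a-3p and miR-19b-3p are also encoded on chromosome X, so reads of these miRNAs cannot be assigned to one locus by sequence. The table lists miR-92a-3p with 10994 counts in all for the chromosome 14 hairpin and 437 for the copy, while miR-19b-3p has the same 47 counts in both entries.

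The libraries held between 860204 and 1453348 counts over the 598 names, of which let-7 family members and miR-98 took 74.9% to 77.9%. A count of 0 in a single library allows up to 3 counts, or 2.06 to 3.49 counts per 1000000 counts (CPM), and such limits cover counting error only. CPM values below were scaled by edgeR's TMM factors, which correct for differences in composition between libraries. The factors were 1.07 to 1.08 in M0-exo and 0.902 to 0.970 in M2-exo, so the scaling lowered the M0-exo values and raised the M2-exo values. All 6 miRNAs of a myeloid marker list were above 0 in every library, with a summed level of 1353 to 1839 CPM across M0-exo and 1274 to 1559 CPM in M2-exo. The sum combines opposite changes, since by the thresholds given below miR-155-5p was lower in M2-exo (log2 fold change -1.04) and miR-223-3p and miR-21a-5p were higher (1.60 and 0.55). Of 5 serum, blood cell or liver miRNAs 4 were listed, at 121 to 157 CPM across M0-exo and 209.8 to 2623 CPM in M2-exo. The liver miRNA miR-122-5p was counted 63, 59 and 51 times in M0-exo, and 137, 107 and 2184 times in M2-exo, so that it was higher in all M2-exo libraries and by far the highest in replicate 3. Without miR-122-5p the ranges were 80.7 to 110 and 81.5 to 133 CPM. Of 6 stromal or muscle miRNAs 3 were listed, at 19.9 to 28.0 CPM across M0-exo and 37.2 to 77.8 CPM in M2-exo. The part of these lists in the results was not tested.

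The main pattern was a wide spread of levels within each cluster and, after TMM scaling, little difference between the groups in the 10 members. The 10 members took 1.17% to 1.20% of the counts of each M0-exo library and 0.968% to 1.06% of each M2-exo library before scaling, with 95% Wilson intervals of at most 0.0228 percentage points to either side, which cover counting error only and not the larger spread between replicates. After TMM scaling, none of the 10 differed between M0-exo and M2-exo in edgeR's quasi-likelihood test at the thresholds used here, a log2 fold change of 0.5 or more in either direction with an unadjusted p-value under 0.05. Over all 598 miRNAs, 60 did, or 10%. After Benjamini-Hochberg adjustment over the 598, p-values below 0.05 were found for 0 of the 10 members against 8.86% of all miRNAs. Before adjustment they were found with edgeR for 0 of the members and for 87 of all 598 miRNAs. DESeq2 called 0 of the 10 as well, and 61 of all 598. Among members averaging 10 counts or more, 0 of 8 were called, against 21.6% of the 241 miRNAs at that depth. The median log2 fold change of these 8 members was -0.05, and that of the 241 was -0.01. With the library total as the only scaling the median of all 598 moved from 0.03 to -0.18, and 1 member, miR-92a-3p, then had an adjusted p-value below 0.05 (edgeR, log2 fold change -0.35, adjusted p = 0.0283).

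**Figure D1:**
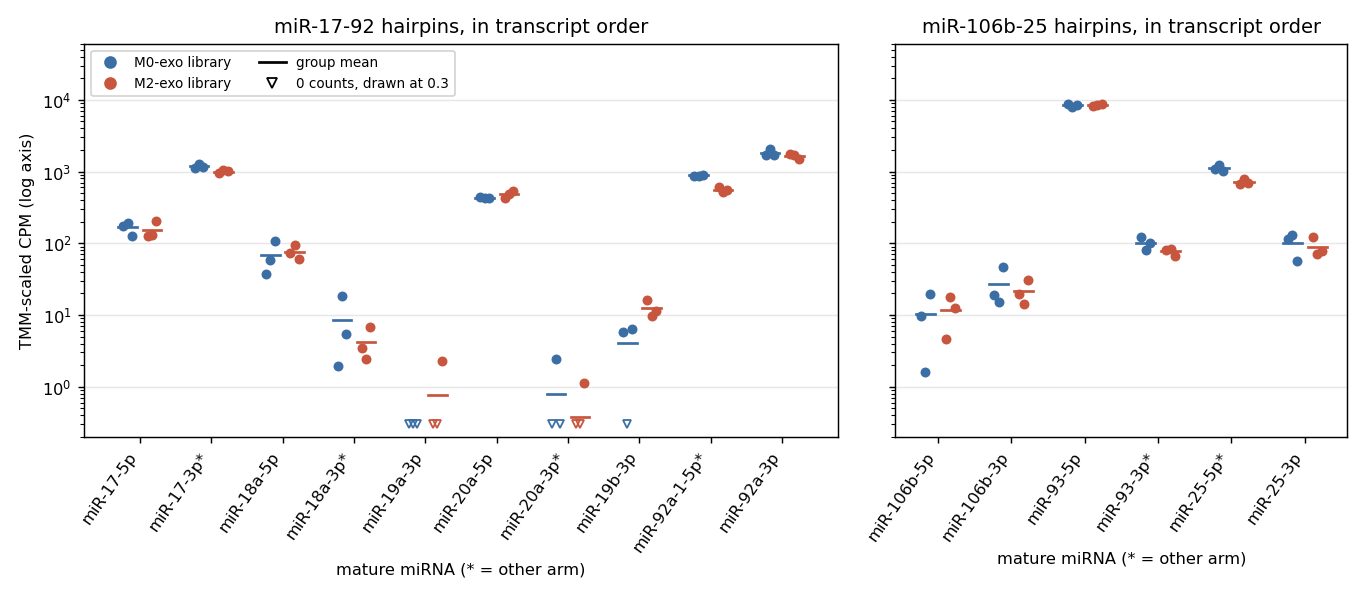
TMM-scaled CPM (log axis) of each mature miRNA of both clusters in each library, in the order of the hairpins on the transcript, with M0-exo in blue, M2-exo in red, bars at group means and asterisks on arms that are not among the 10 members. miR-93-5p has means of 8355 and 8423 CPM in the groups, while miR-19a-3p, from the other cluster, was above 0 in 1 library only.

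Within the miR-17-92 transcript, the last hairpin gave the most abundant member. miR-92a-3p, which pairs with targets through the AUUGCAC seed and is known for restraining vessel growth, had 2664, 2541 and 1570 counts in M0-exo replicates 1 to 3, and 1504, 1411 and 1304 in the same order for M2-exo. Scaled, these were 1706, 2029 and 1688 CPM across M0-exo and 1761, 1691 and 1491 CPM in M2-exo. The M0-exo values overlapped those of M2-exo, with M0-exo replicate 2 highest and M2-exo replicate 3 lowest. The log2 fold change was -0.13 with a 95% interval from -0.36 to 0.09 (adjusted p = 0.517 from edgeR).

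miR-20a-5p and miR-17-5p, which carry the AAAGUGC seed and are the classical repressors of E2f1 and of the cell cycle inhibitor p21, were the next in abundance. miR-20a-5p was counted 682, 536 and 401 times in M0-exo, and 370, 403 and 464 times in M2-exo. Its M0-exo libraries were close together at 437, 428 and 431 CPM, and those of M2-exo spread from 433 to 531 CPM, so that only M2-exo replicate 1 fell within the M0-exo range. The log2 fold change was 0.16 with an interval from -0.15 to 0.46 (adjusted p = 0.592 from edgeR). miR-17-5p, the hairpin nearest to the 5′ end, was counted 275, 243 and 119 times in M0-exo, and 107, 110 and 181 times in M2-exo, or 176, 194 and 128 CPM against 125, 132 and 207 CPM. The groups overlapped throughout, with M0-exo replicate 3 below the other M0-exo libraries and M2-exo replicate 3 above the other M2-exo libraries. The change was -0.10 on the log2 scale, with an interval from -0.54 to 0.33 (adjusted p = 0.841 from edgeR). The level of miR-20a-5p was 2.21 to 3.66 times that of miR-17-5p within each of the 6 libraries, and their sequences differ at 2 of 23 positions.

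miR-18a-5p, which has a seed that differs from AAAGUGC by 1 base and is known as a repressor of Ctgf, was a low member. It was counted 59, 73 and 101 times in M0-exo, and 63, 78 and 53 times in M2-exo. In CPM the M0-exo libraries, at 37.8, 58.3 and 109, enclosed the M2-exo libraries at 73.8, 93.5 and 60.6. The log2 fold change was 0.17 with an interval from -0.47 to 0.80 (adjusted p = 0.820 from edgeR).

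The miR-19 members, which share the GUGCAAA seed and are known as the main oncogenic part of the cluster, were close to the detection limit. miR-19a-3p had 0 counts in 5 libraries and 2 in M2-exo replicate 3, so no fold is given. miR-19b-3p was counted 9, 0 and 6 times in M0-exo, and 14, 8 and 10 times in M2-exo. Every M2-exo library was above every M0-exo library in CPM (5.76, 0 and 6.45 against 16.4, 9.59 and 11.4), which also held for 19.1% of all 598 miRNAs in one direction or the other. With so few counts the log2 fold change of 1.60 had an interval from -0.97 to 4.16 (adjusted p = 0.517 from edgeR), and a difference was not detectable at this depth. A single base separates the miR-19 members over their 23 bases, so the split of reads between them is uncertain. miR-19b-3p lies between miR-20a-5p and miR-92a-3p on the transcript, and its mean over the 6 libraries was 8.27 CPM against 457 and 1728 CPM for these neighbours.

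The miR-106b-25 cluster was dominated by its middle hairpin. miR-93-5p, an AAAGUGC miRNA of the same target class as miR-17-5p, was counted 13507, 9899 and 7915 times in M0-exo, and 6893, 7055 and 7647 times in M2-exo. It was 14th of the 598 miRNAs by mean CPM, with 8648, 7905 and 8510 CPM across M0-exo and 8069, 8457 and 8744 CPM in M2-exo. The groups overlapped over most of their range, with means of 8355 ± 395 CPM (M0-exo, SD, n = 3) and 8423 ± 339 CPM (M2-exo). The log2 fold change was 0.01 with an interval from -0.16 to 0.18, the narrowest of the 9 members with an interval (adjusted p = 0.955 from edgeR). A change beyond 1.13-fold upwards or to below 0.897 of the M0-exo level lay outside that interval under TMM scaling. With the library total alone the log2 fold change was -0.21 (edgeR, unadjusted p = 0.0139, adjusted p = 0.137).

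The hairpins on either side of miR-93 gave far fewer reads. miR-25-3p, which shares its AUUGCAC seed with miR-92a-3p and is known to repress Bim, was counted 177, 161 and 52 times in M0-exo, and 103, 59 and 68 times in M2-exo. In CPM these were 113, 129 and 55.9 against 121, 70.7 and 77.8, with M0-exo replicate 3 the lowest of all and the groups overlapping. The log2 fold change was -0.15 with an interval from -0.71 to 0.40 (adjusted p = 0.819 from edgeR). Within a library, miR-93-5p had 61.5 to 152 times the counts of miR-25-3p, which lies on the same Mcm7 transcript.

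miR-106b was the lowest of the 3 hairpins, and both of its arms are members. miR-106b-5p, an AAAGUGC miRNA known to repress p21, was counted 15, 2 and 18 times in M0-exo, and 4, 15 and 11 times in M2-exo. miR-106b-3p was counted 30, 19 and 43 times in M0-exo, and 17, 12 and 27 times in M2-exo. Both were highest in M0-exo replicate 3 on the CPM scale and both groups overlapped. Neither difference was detectable at this depth, with log2 fold changes of 0.22 (interval from -1.85 to 2.28, adjusted p = 0.930) and -0.29 (interval from -1.50 to 0.91, adjusted p = 0.841), both from edgeR. The 3p arm had the larger count in 5 of the 6 libraries, and the exception was M2-exo replicate 2. The log2 ratio of 5p to 3p counts was -1.83 ± 1.23 (SD, n = 3) in M0-exo and -1.02 ± 1.23 in M2-exo, a difference smaller than the spread (two-sided exact permutation test, p = 0.6, where 3 against 3 libraries allow no p below 0.1). Without M0-exo replicate 2, where miR-106b-5p had 2 counts, the difference of 0.81 became 0.11.

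**Figure D2:**
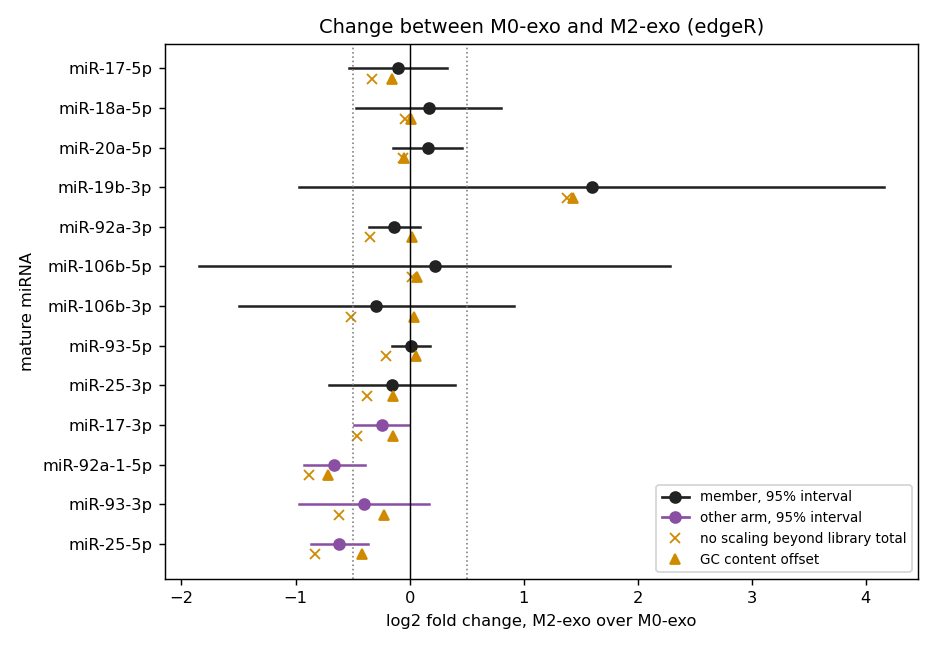
Log2 fold change of M2-exo over M0-exo for 9 members (black) and 4 other arms (purple), with 95% intervals from edgeR, and the same value with the library total alone (crosses) or with an offset for GC content (triangles). The dotted lines mark a log2 fold change of 0.5 in either direction, and among the 13 miRNAs only the intervals of miR-17-3p, miR-92a-1-5p and miR-25-5p do not include 0.

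Over all 6 libraries the members fell in the order miR-93-5p (8389 CPM), miR-92a-3p (1728 CPM), miR-20a-5p (457 CPM), miR-17-5p (160 CPM), miR-25-3p (94.5 CPM), miR-18a-5p (72.1 CPM), miR-106b-3p (24.3 CPM), miR-106b-5p (11.0 CPM), miR-19b-3p (8.27 CPM) and miR-19a-3p (0.381 CPM). The members are 21 to 23 bases long, so these levels were not divided by length. The ranges of the 4 most abundant members over the 6 libraries did not overlap with one another. From miR-17-5p to miR-19a-3p the ranges of neighbours in this order overlapped over the 6 libraries. Within each of the 6 libraries, however, miR-17-5p was above miR-25-3p, and miR-18a-5p above miR-106b-3p. The order of miR-25-3p and miR-18a-5p held in 4 of the 6 libraries, that of miR-106b-3p and miR-106b-5p in 5 and that of miR-106b-5p and miR-19b-3p in 5, so these neighbours are not resolved beyond the spread.

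Sums by cluster hold the members only and leave out the other arms described below, so they do not stand for all reads of a cluster. Among those arms, miR-17-3p, miR-25-5p and miR-92a-1-5p had 6983, 6016 and 4732 counts in all. The 6 miR-17-92 members summed in M0-exo to 2478 ± 201 CPM (SD, n = 3), and in M2-exo to 2374 ± 61.4 CPM. The 4 miR-106b-25 members summed in M0-exo to 8491 ± 389.5 CPM, and in M2-exo to 8546 ± 326 CPM. On the log2 scale the differences were -0.06 and 0.01, each smaller than the pooled SD between replicates (0.09 and 0.06), and no test was run on these sums. A single member decided each sum, since miR-92a-3p made up 64.7% to 74.9% of the miR-17-92 counts and miR-93-5p made up 98.2% to 98.8% of the miR-106b-25 counts. Without them, the remaining 5 miR-17-92 members summed to 670 ± 12.5 CPM across M0-exo and 726 ± 82.0 CPM in M2-exo, and the remaining 3 miR-106b-25 members to 136 ± 12.9 and 123 ± 21.1 CPM. With the library total as the only scaling, the differences of the clusters were -0.28 and -0.21, beside the shift of all miRNAs given above.

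By seed, the AAAGUGC family ranked 9th of the 500 seeds in the table by total count and the AUUGCAC family 26th, while AAGGUGC ranked 95th and GUGCAAA 213th. The 4 AAAGUGC members summed to 9270, 8529 and 9089 CPM across M0-exo and 8632, 9090 and 9494 CPM in M2-exo. The groups overlapped, the log2 difference was 0.02, and miR-93-5p held 92.1% to 93.6% of the counts. The AUUGCAC pair summed to 1819, 2158 and 1744 CPM across M0-exo and 1881, 1762 and 1569 CPM in M2-exo, with a log2 difference of -0.13 and 93.6% to 96.8% of the counts from miR-92a-3p. Thus one family drew nearly all of its reads from the Mcm7 locus and the other from an entry assigned to the Mir17hg locus. The remaining miRNAs with these seeds were rare in both groups. miR-20b-5p of the paralogous miR-106a-363 cluster on chromosome X was counted 0, 0 and 0 times in M0-exo, and 1, 1 and 6 times in M2-exo, and it was the only one listed of the 8 mature miRNAs sought from that cluster apart from its copies of the miR-19b and miR-92a hairpins, whose 3p entries are given above. miR-92b-3p had 16 counts in all and miR-32-5p had 7, all of them in M2-exo replicate 2.

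**Figure D3:**
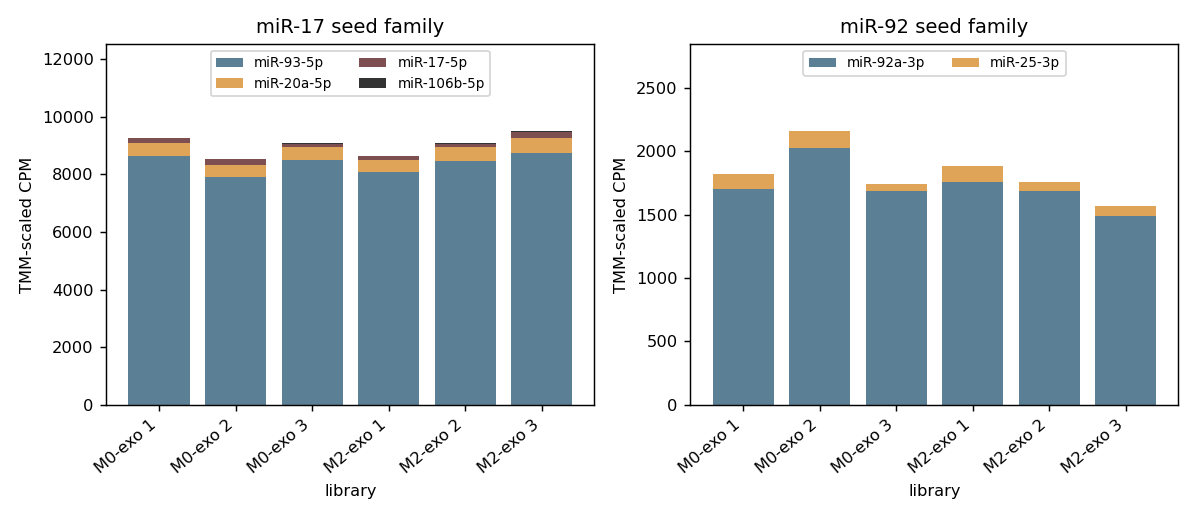
Stacked TMM-scaled CPM of the members that share the seed of miR-17-5p (left) and of those that share the seed of miR-92a-3p (right) in each library. miR-93-5p fills most of each left bar and miR-92a-3p most of each right bar, and the bars of M0-exo and M2-exo overlap in height.

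Differences past the thresholds were found among the other arms of the hairpins. Of the 8 such arms that are not members, 6 were listed, and 2 of these fell in M2-exo past both thresholds, where 6.35% of all 598 miRNAs were lower by the same rule. Among those averaging 10 counts or more, 2 of 4 were lower, against 14.1% at that depth. miR-92a-1-5p, the partner strand of miR-92a-3p, was counted 1366, 1098 and 835 times in M0-exo, and 518, 439 and 476 times in M2-exo. In CPM the M0-exo libraries lay at 875, 877 and 898 and the M2-exo libraries at 606, 526 and 544, with no overlap. Groups without overlap, in either direction, were found for 89 of the 241 miRNAs at that depth. Its log2 fold change was -0.66, with a standard error of 0.14 (edgeR, adjusted p = 3.3e-05), and it stayed past the threshold in each of the 16 alternative fits, from -0.88 to -0.60.

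miR-25-5p, the partner strand of miR-25-3p, was counted 1713, 1527 and 931 times in M0-exo, and 576, 658 and 611 times in M2-exo. It stood at 1097, 1219 and 1001 CPM across M0-exo and 674, 789 and 699 CPM in M2-exo, again without overlap. The log2 fold change was -0.62, with a standard error of 0.13 (edgeR, adjusted p = 3.3e-05). Without M2-exo replicate 3 it was -0.60, and that of miR-92a-1-5p was -0.64. The GC content of miR-25-5p was 59.1%, where the miRNAs called lower had a median of 60.0% and those called higher one of 45.5%. With an offset for GC content the log2 fold change was -0.42 (edgeR, adjusted p = 0.00972), under the threshold of 0.5. miR-92a-1-5p, at 47.8% GC, had -0.71 with that offset.

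miR-17-3p was at 1122, 1284 and 1145 CPM across M0-exo and 947, 1040 and 1007 CPM in M2-exo. The groups did not overlap, which held for 89 of the 241 miRNAs averaging 10 counts or more. The log2 fold change of -0.25 was under the threshold (edgeR, unadjusted p = 0.0458, adjusted p = 0.318). With the library total as the only scaling it was -0.46 (edgeR, adjusted p = 0.00374), still under 0.5, and with the GC offset -0.15 (edgeR, unadjusted p = 0.196). For miR-93-3p the log2 fold change was -0.40, with a standard error of 0.29 (edgeR, adjusted p = 0.511), with overlapping groups at 122, 81.5 and 101 against 80.8, 82.7 and 67.5 CPM. The remaining arms, miR-18a-3p and miR-20a-3p, had 42 and 4 counts in all, of which M0-exo replicate 2 held 23 and 3.

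The arm that dominated a hairpin differed along both transcripts. miR-17-3p had 6.37, 6.62 and 8.95 times the counts of miR-17-5p in M0-exo and 7.56, 7.89 and 4.87 times in M2-exo. miR-25-5p had 9.68, 9.48 and 17.9 times the counts of miR-25-3p in M0-exo and 5.59, 11.2 and 8.99 times in M2-exo. For both hairpins, then, the arm that is not among the 10 members was the more abundant one in every library. The miR-93 hairpin was the opposite, with 70.7 to 129.6 counts of miR-93-5p for each count of miR-93-3p. For miR-92a the 3p member led, by 1.95, 2.31 and 1.88 times over miR-92a-1-5p in M0-exo and 2.90, 3.21 and 2.74 times in M2-exo.

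Such a ratio within a library does not depend on the scaling between libraries. For miR-92a the M0-exo and M2-exo ratios did not overlap, and the log2 ratio of miR-92a-1-5p to miR-92a-3p differed by -0.53 (p = 0.1 in a two-sided exact permutation test, its lowest possible value, and 0.25 after Benjamini-Hochberg adjustment over the 5 hairpins compared). The ratio of miR-93-3p to miR-93-5p also did not overlap, with a difference of -0.40 (exact permutation p = 0.1, adjusted p = 0.25). That of miR-25 differed by -0.52 with overlapping groups (exact permutation p = 0.4) and that of miR-17 by -0.13 (exact permutation p = 0.8). With 3 libraries a group none of the 5 could reach 0.05.

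**Figure D4:**
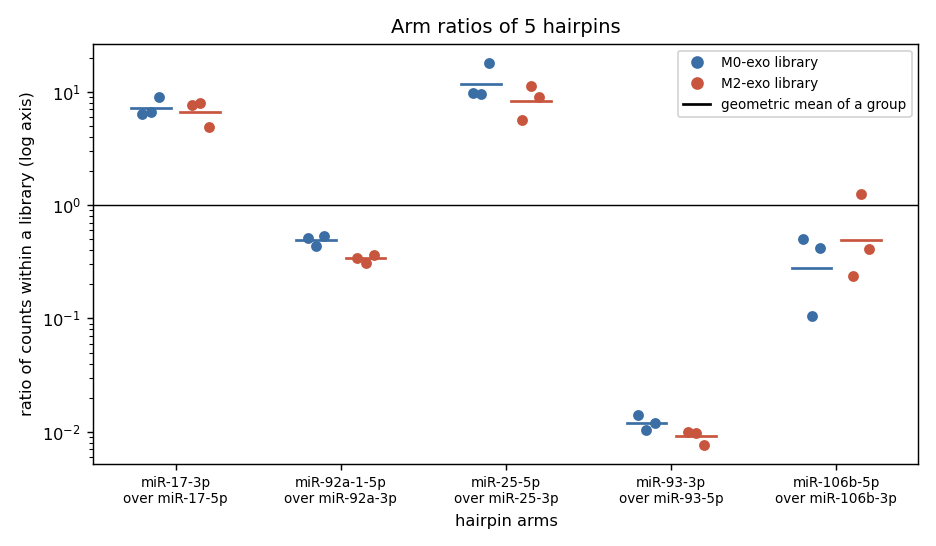
Ratio of the counts of the arms of 5 hairpins within each library (log axis), with M0-exo in blue, M2-exo in red and bars at the geometric mean of each group. The points of miR-17 and miR-25 lie above 1 in every library, and the groups separate for the hairpins of miR-92a and miR-93 only.

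By distance over the 6 libraries, the profile nearest to the mean of 4 miR-17-92 members with a mean of at least 10 counts was that of miR-103-3p, among 105 miRNAs with a mean of at least 100 counts (root mean square distance of centred log2 CPM 0.06), followed by miR-674-5p (0.08) and miR-181a-5p (0.09). For the miR-106b-25 members the nearest was miR-182-5p (0.18), followed by miR-361-5p (0.19) and miR-185-5p (0.24). The averaged members of a cluster counted equally. The rare miR-106b-5p and miR-106b-3p, with 65 and 148 counts in all, thus weighed as much as miR-93-5p with 52916. These distances are descriptions over libraries that share one scaling.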

How the data were processed

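Small RNA libraries were prepared with the NEBNext Multiplex Small RNA set from exosomes of 3 M0-exo and 3 M2-exo samples, grouped by their titles. The authors deposited raw counts for 638 entries (mature miRNA and precursor) together with RPM values. Each RPM value was checked to lie within 0.005 of the deposited count over the library sum, and the RPM values were not used further. The submitters' processing notes name the build mm39. The aligner, counting tool and filters are not given in the sources used here.

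A single entry was used for each of 598 names, that of highest total. Counts were tested with edgeR 4.0.16 in R 4.3.3 (TMM, estimateDisp, glmQLFit, glmQLFTest, no covariates), after the paper's thresholds. Standard errors were taken as the size of the log2 coefficient over the root of F, and intervals are 95%. Both rest on a dispersion drawn largely from all miRNAs together. For miR-122-5p, with 137, 107 and 2184 counts in M2-exo, the standard error was still only 0.18. Alternatives included DESeq2 1.42.0. Arm ratios were compared by exact permutation. The fit was also run on counts simulated from its own dispersion trend. Such data cannot show how it treats miRNAs whose spread departs from that trend. GC content was computed from the listed sequences, and figures were drawn with matplotlib 3.10.9. Named miRNAs were the members, their other arms, the miR-106a-363 paralogs, miRNAs with the same seed, marker lists and the 3 nearest profiles per cluster. The members and lists were chosen with earlier results of these data known. Counts are reads without stated molecular identifiers.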

Additional observations from a re-analysis of the deposited data

How the results depend on the processing

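The number of members past the threshold was 0 in each of the 17 alternatives, 6 of which left out 1 library (0 to 0), and 0 members had adjusted p-values below 0.05 in each fit but 1 (1 member with the library total alone). With the library total alone the summed log2 differences were -0.28 for miR-17-92, -0.21 for miR-106b-25, -0.20 for the AAAGUGC and -0.35 for the AUUGCAC family, and the cause was not tested. Directions of small differences turned there for miR-18a-5p (-0.0440), miR-20a-5p (-0.0592) and miR-93-5p (-0.21). They turned with the GC offset, without and with a replicate block, for miR-20a-5p (-0.0506 and -0.0496), miR-92a-3p (0.0181 and 0.0166) and miR-106b-3p (0.0401 and 0.11), and for miR-93-5p with RLE factors or DESeq2 (-0.00782 and -0.00783). miR-25-5p was below the fold threshold with the GC offset (-0.42), and miR-93-3p was past it with the library total alone (-0.62).

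Leaving out 1 library moved miR-17-5p from -0.37 to 0.0211, miR-18a-5p from -0.13 to 0.66, miR-25-3p from -0.43 to 0.0707, miR-93-5p from -0.0265 to 0.0374, miR-106b-5p from -0.28 to 1.04 and miR-106b-3p from -0.63 to 0.33. The miR-106b arm difference ran from 0.11 to 1.35 and the summed levels from -0.09 to 0.01 (miR-17-92), -0.03 to 0.04 (miR-106b-25), -0.02 to 0.05 (AAAGUGC) and -0.19 to -0.04 (AUUGCAC). Deviations from the group means correlated at -0.0533, 0.0045 and -0.0395 between samples of the same replicate number, over 241 miRNAs, so no pairing was assumed. With a replicate block 0 members passed, and 56 of all 598 miRNAs did.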
